A study of Mus musculus with 10 samples.

Results

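Apoe, Gamt and Bambi encode a lipid carrier, an enzyme that makes creatine and a receptor-like protein that dampens TGF-beta and BMP signals. Their transcripts were measured in testis in 2 RNA fractions, one immunoprecipitated (IP) and one left in the supernatant (Sup). The 3 genes were chosen by name, with earlier results of these data known, so their p-values are not those of genes picked independently of the data. Their probes were chosen by the RefSeq mRNA accession that the array gives each probe: A_51_P171999 for Apoe (NM_009696), A_51_P484869 for Gamt (NM_010255) and A_51_P248819 for Bambi (NM_026505). These are 3 of 60691 mouse probes and of 45 that matched a gene symbol. The 5 controls were male C57BL/6J offspring, aged 3 months, of C57BL/6 mothers injected under the skin each day with solvent (sesame oil and benzyl benzoate) from day 14 to day 19 post coitum. The 5 prenatal testosterone samples were male offspring of the same strain and age whose mothers received testosterone at 2.5 mg/kg body weight on the same days. The mother was treated and not the male that was measured, and the labels used here do not give the litters, so that littermates, if any, were treated as independent samples. Each sample was hybridised to 1 array, with Sup in Cy3 and IP in Cy5 on every array, so that dye and fraction cannot be told apart. The antibody is not named in the labels, and the IP/Sup ratio is therefore given as a ratio of fractions.

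Apolipoprotein E is a secreted protein of lipoprotein particles and is bound by receptors of the LDL receptor family, which take up cholesterol and other lipids; in testis, cholesterol is the starting material of steroid synthesis in Leydig cells. Guanidinoacetate N-methyltransferase, the product of Gamt, transfers a methyl group from S-adenosylmethionine to guanidinoacetate, which Gatm makes, and so completes creatine; creatine kinases then use creatine as an energy buffer. Bambi is a membrane protein that resembles type I receptors of the TGF-beta, activin and BMP ligands but lacks the kinase domain, and so dampens their signalling. All 3 genes are also active in tissues other than testis. The label that groups them as somatic support genes could not be checked here: of the marker lists for Leydig, Sertoli, peritubular myoid, macrophage, endothelial and germ cells, 0 genes had a named probe. In bulk testis RNA, fewer cells of a type and less RNA per cell cannot be told apart. The lists for the 3 pathways hold 15 genes of lipid carriage, 7 of creatine synthesis and use and 27 of TGF-beta, activin and BMP signalling. Each list had 1 named probe, that of Apoe, Gamt and Bambi respectively, so no other ligand, receptor, enzyme or transporter is described.

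The array headers give 3 slides, read in 2 scans. Control replicates 1 to 4 lay on slide 1, while slide 2 carried both groups, with control replicate 5 beside testosterone replicates 1 to 3. The other testosterone arrays, replicates 4 and 5, lay on slide 3 and were the only arrays of the second scan. The second scan was dimmer: its 75th percentile of the Sup signal was 1086 to 1088, against 1374 to 1671 in the first scan, and 61.9% to 64.3% of probes were well above background in IP, against 71.7% to 76.2%. In Sup these shares overlapped, at 68.3% to 69.4% against 68.9% to 75.3%. Control replicate 2 also stood apart for these genes, as given below. The differences between groups are therefore given with and without these arrays.

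All 3 probes were bright in both channels. Each was printed at 10 spots per array, and all 100 spots of each gene over the 10 arrays were well above background in Sup and in IP, with 0 saturated. The median pixel intensity of a Gamt spot, the dimmest of the 3, ran from 448.5 to 979 in Sup over a local background of 10 to 16, and from 105 to 267 in IP over a background of 14 to 19. Apoe spots ran from 1610 to 4292 in Sup and from 463.5 to 1625 in IP. Bambi spots ran from 1568 to 3183 in Sup and from 280 to 1066 in IP. Outlier flags removed 2 spots of Gamt, 12 of Apoe and 7 of Bambi.

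The replicate spots measured how well an array repeats itself. The median SD of the log2 ratio over the spots of an array was 0.0962 for Gamt, 0.101 for Apoe and 0.0996 for Bambi. The SD between arrays of a group was 0.192, 0.322 and 0.261, which is 6.32, 8.30 and 7.87 times the median standard error of an array's mean. Each array holds another sample, so the spread between arrays includes that between samples, and the spot SD covers the spots of 1 array only. Spots repeated less well in IP, with median spot SDs of 0.0847 to 0.0970 over the 3 genes, than in Sup, with 0.0336 to 0.0421.

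**Figure D1:**
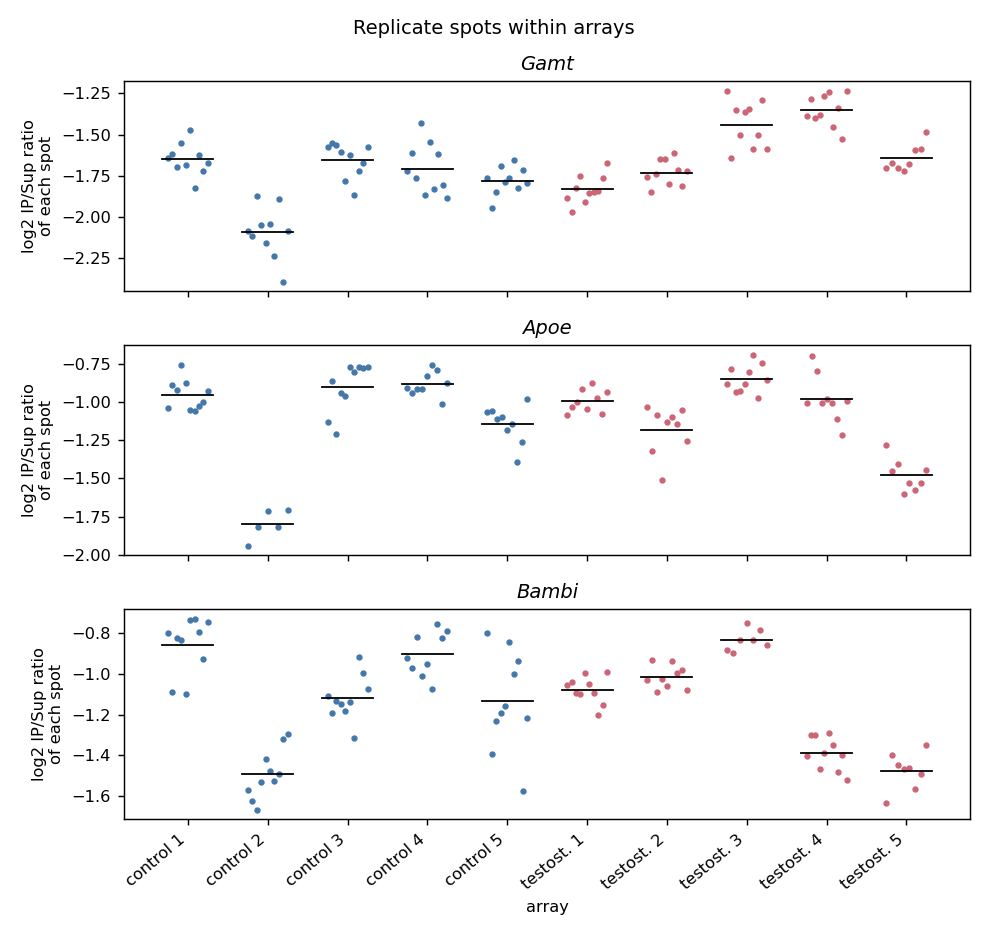
Log2 IP/Sup ratio of each unflagged spot (dots, blue for control and red for testosterone arrays), less the array's median over mouse probes, with the mean of each array as a black line; the y axes differ between genes. The line of control replicate 2 is the lowest of all arrays in each panel, at -2.09 for Gamt, -1.80 for Apoe and -1.49 for Bambi.

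The first comparison asked on which side of the fractionation each transcript lay. All 3 lay on the Sup side on every array. Gamt was 3.22-fold, Bambi 2.19-fold and Apoe 2.17-fold higher in Sup than in IP, relative to the median mouse probe. These genes were among 21.1% of tested probes called on the Sup side (limma adjusted p under 0.05 and at least 2-fold; 40.6% were called on either side), so a place on the Sup side is common on this array.

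Apoe, the lipid carrier, had Sup signals of 21837, 31012, 23699, 23233 and 18964 in control replicates 1 to 5 and of 21044, 22133, 20803, 10030 and 12271 in testosterone replicates 1 to 5. Its IP signals were 11414, 8869, 12106, 12604 and 8623 in controls and 9960, 9955, 10960, 5181 and 4645 after testosterone. These are processed spot intensities on a linear scale, averaged over spots. Sup was above IP on every array, and both fractions were lowest on the 2 arrays of the second scan. The log2 IP/Sup ratio, less the array median, was -0.95, -1.80, -0.90, -0.88 and -1.14 in controls and -0.99, -1.18, -0.85, -0.98 and -1.48 after testosterone. The groups overlapped, control replicate 2 was the lowest, and only 4 of 10 arrays were past 2-fold. The mean of both groups was -1.12 ± 0.097 (SE, n = 10; limma adjusted p = 8.96e-08), with a 95% interval of -1.33 to -0.91 that reaches below 2-fold.

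Gamt, the creatine synthesis enzyme, had Sup signals of 5639, 6357, 5683, 5255 and 4836 in controls and of 5094, 4818, 4453, 2465 and 2872 after testosterone. Its IP signals were 1819, 1483, 1721, 1610 and 1415 in controls and 1349, 1481, 1555, 984 and 969 after testosterone. The log2 ratio was -1.65, -2.09, -1.65, -1.71 and -1.78 in controls and -1.83, -1.73, -1.44, -1.35 and -1.64 after testosterone. All 10 arrays were past 2-fold, from 2.55-fold in testosterone replicate 4 to 4.27-fold in control replicate 2. The mean was -1.69 ± 0.0729 (SE, n = 10; limma adjusted p = 4.61e-11), with a 95% interval of -1.85 to -1.53. Of all tested probes, 9.85% had a lower ratio than Gamt, against 18.4% for Bambi and 18.7% for Apoe.

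Bambi, the decoy receptor, had Sup signals of 14657, 21412, 14368, 14655 and 13859 in controls and of 14213, 14775, 14483, 9384 and 11804 after testosterone. Its IP signals were 8197, 7570, 6303, 7857 and 6338 in controls and 6349, 7461, 7702, 3645 and 4467 after testosterone. The log2 ratio was -0.86, -1.49, -1.12, -0.90 and -1.14 in controls and -1.08, -1.01, -0.83, -1.39 and -1.48 after testosterone. Control replicate 2 and the 2 arrays of the second scan were the lowest, the groups overlapped, and 7 of 10 arrays were past 2-fold. The mean was -1.13 ± 0.0849 (SE, n = 10; limma adjusted p = 1.82e-08), with a 95% interval of -1.31 to -0.95.

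**Figure D2:**
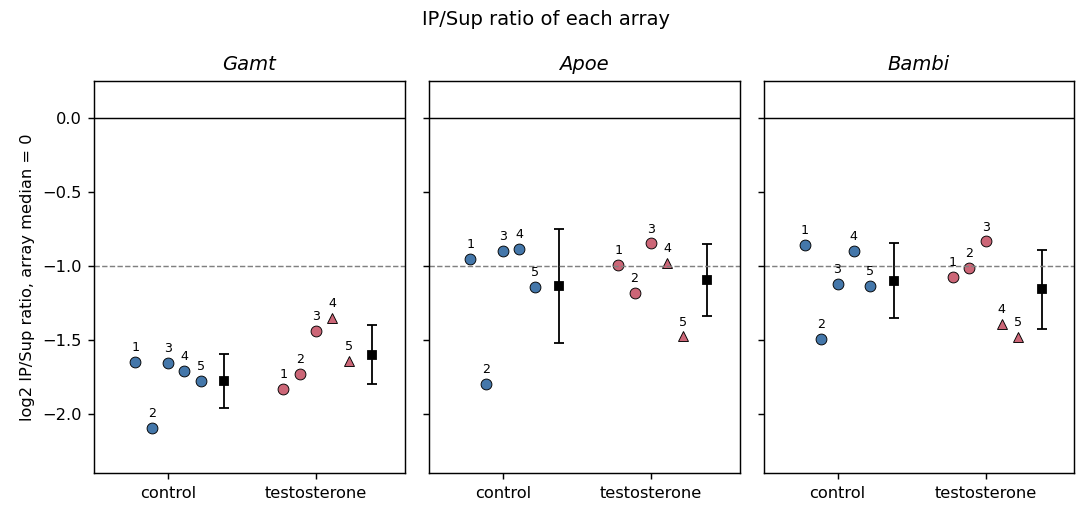
Log2 IP/Sup ratio of each array, less the array's median over mouse probes (points numbered by replicate, triangles for the second scan), with the mean and SD of each group of 5 as squares with bars; the dashed line marks a 2-fold ratio. All points lie below 0, and every Gamt point lies below the dashed line, while Apoe and Bambi lie on both sides of it.

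Gamt stayed past 2-fold under another centring, and Apoe and Bambi did not. With each array centred on spike-in RNA, which was added in equal amount to both fractions per the labels, the mean log2 ratio was -1.43 for Gamt, -0.86 for Apoe and -0.87 for Bambi. On the 7 arrays left without the second scan and control replicate 2, Apoe and Bambi were both at -0.99, and Gamt was at -1.68. The 22 spike-ins detected in both channels had mean log2 ratios between -3.52 and 1.40, the second lowest being -1.56. Only 1 of the 22 had a lower ratio than Gamt, and 5 had a lower ratio than Apoe or Bambi. Of the 5 spike-ins within 2-fold of Gamt in brightness, the mean ratios ran from -1.44 to -0.60, all above the mean of Gamt. Their SDs over arrays ran from 0.15 to 1.15, so the means do not show a separation from Gamt on single arrays. All 5 were on the Sup side themselves in the mean, though added in equal amount to both fractions per the labels. The 3 within 2-fold of Bambi ran from -0.02 to 1.32, all above that of Bambi, while the 4 within 2-fold of Apoe ran from -3.52 to 1.32 and so lay on both sides of it. The SEs do not cover such a part of the probe and dye, and its share in the ratios was not tested.

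Gamt had a lower ratio than Apoe on 10 of 10 arrays, by 0.57 ± 0.229 (SD) on the log2 scale. It was lower than Bambi on 9 of 10, by 0.56 ± 0.280 (SD), the exception being testosterone replicate 4. Apoe and Bambi did not differ beyond their spread: the difference was 0.01 ± 0.198 (SD), with Apoe lower on 5 arrays and higher on the other 5. Likeness over arrays was taken as the root mean square difference of the log2 ratio over the 10 arrays, among 37 other named and tested probes. Bambi was the gene nearest to Apoe, at 0.189, and Apoe the nearest to Bambi. Next to Apoe came Gpi1, a glycolytic enzyme, at 0.486. Next to Bambi came Actb, cytoplasmic beta-actin, at 0.425. Nearest to Gamt were Gsdmd, the pore-forming gasdermin D, at 0.245, Prdx2, a peroxiredoxin, at 0.352, and Gsta4, a glutathione S-transferase, at 0.394. All probes of an array share that array's dye normalization and centring, so that likeness is a description only.

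The second comparison asked whether prenatal testosterone changed the level of the 3 transcripts in each fraction. None of the 3 passed in either fraction. Levels are log2 of the processed signal less the array's 75th percentile in that channel. Limma called 0% of 44612 probes tested in Sup (0 probes, with 4992 at an unadjusted p under 0.05) and 0.00226% of 44303 tested in IP (1 probe without a gene name, ASMM10EP3A105527755, named after its values were seen, with 6126 at an unadjusted p under 0.05). The counts of members called, 0 of 3 in both, are read against these shares. The median absolute difference over all tested probes was 0.17 in Sup and 0.15 in IP.

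Gamt had the largest difference of the 3 in Sup. Its log2 Sup level was 1.79, 1.94, 1.77, 1.66 and 1.60 in controls and 1.89, 1.57, 1.47, 1.18 and 1.40 after testosterone. Of the testosterone arrays, 4 of 5 lay below every control, the lowest being the 2 of the second scan. The means were 1.75 ± 0.131 (SD, n = 5) and 1.50 ± 0.260 (SD, n = 5), a difference of -0.25 ± 0.136 (SE) with a 95% interval of -0.54 to 0.05 (limma adjusted p = 0.455). The difference was -0.11 without the second scan, -0.20 without control replicate 2, and 0.05 within slide 2, which held 1 control and 3 testosterone arrays. It was larger, at -0.34 (95% interval -0.62 to -0.07; limma adjusted p = 0.403), without testosterone replicate 1. The intervals with normexp (-0.26; limma adjusted p = 0.604) and without scaling (-0.55; limma adjusted p = 0.132) also left out 0, and the median of all probes without scaling was -0.35. In IP the level of Gamt was 0.15, -0.17, 0.02, -0.07 and -0.19 in controls and -0.05, -0.15, -0.07, -0.14 and -0.16 after testosterone. All 5 testosterone arrays lay within the control range. The difference was -0.06 ± 0.0932 (SE), with a 95% interval of -0.26 to 0.14 (limma adjusted p = 0.763). It was -0.035 without the second scan, -0.090 without control replicate 2, -0.0086 without control replicate 1 and 0.10 within slide 2. The residual SD of Gamt in IP was 0.107, and 5.37% of tested probes had a smaller one.

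Apoe had a log2 Sup level of 3.74, 4.22, 3.83, 3.80 and 3.57 in controls and of 3.94, 3.77, 3.70, 3.20 and 3.50 after testosterone. The groups overlapped, and the lowest 2 arrays were again those of the second scan. The difference was -0.21 ± 0.160 (SE), with a 95% interval of -0.56 to 0.14 (limma adjusted p = 0.528). In IP the level was 2.80, 2.41, 2.83, 2.90 and 2.42 in controls and 2.84, 2.60, 2.75, 2.26 and 2.10 after testosterone. The second scan gave the 2 lowest values here too, and the other 3 testosterone arrays lay within the control range. The difference was -0.16 ± 0.165 (SE), with a 95% interval of -0.52 to 0.20 (limma adjusted p = 0.634). Without the second scan the differences of Apoe were -0.03 in Sup and 0.06 in IP, and within slide 2 they were 0.23 and 0.31. They were -0.11 and -0.23 without control replicate 2. The Sup difference was also -0.11 without testosterone replicate 4, and the IP difference was -0.06 without testosterone replicate 5 and -0.24 without testosterone replicate 1. Without scaling, the Sup difference of Apoe was -0.51 (95% interval -1.02 to -0.0075; limma adjusted p = 0.145), against a median of -0.35 over all probes.

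Bambi had a log2 Sup level of 3.17, 3.69, 3.10, 3.14 and 3.12 in controls and of 3.37, 3.19, 3.18, 3.11 and 3.44 after testosterone. Control replicate 2 was the highest array, and all 5 testosterone arrays lay within the control range. The difference was 0.01 ± 0.136 (SE), with a 95% interval of -0.28 to 0.31 (limma adjusted p = 0.964). It was 0.13 without control replicate 2 and 0.00090 without the second scan. In IP the level was 2.33, 2.18, 1.89, 2.22 and 1.97 in controls and 2.19, 2.18, 2.24, 1.75 and 2.05 after testosterone. Only testosterone replicate 4, of the second scan, lay outside the control range. The difference was -0.04 ± 0.124 (SE), with a 95% interval of -0.31 to 0.24 (limma adjusted p = 0.907), and it was 0.09 without the second scan, -0.02 without control replicate 2 and 0.23 within slide 2.

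**Figure D3:**
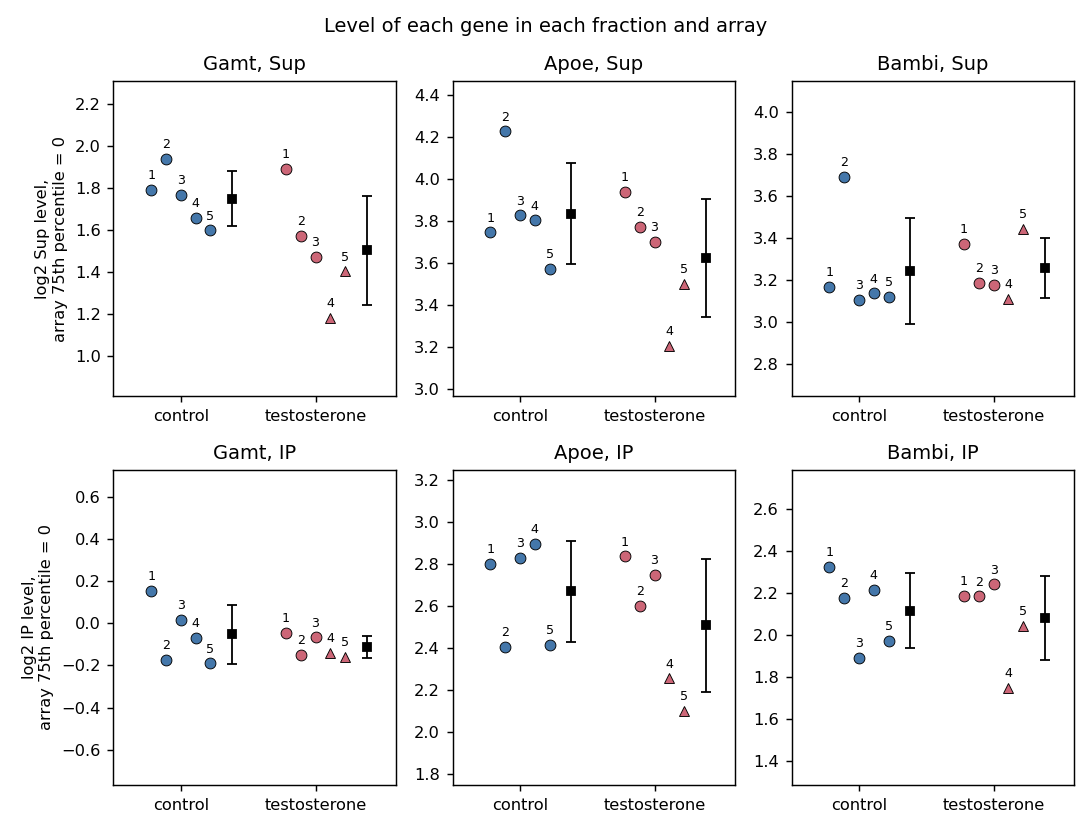
Log2 level of each gene in Sup (top) and IP (bottom) on each array, less the array's 75th percentile in that channel (points numbered by replicate, triangles for the second scan), with the mean and SD of each group of 5 as squares with bars; each panel spans the same range of 1.5 log2 units. Gamt and Apoe have their 2 lowest Sup values on the second scan, and Bambi does not.

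The third comparison asked whether testosterone changed the IP/Sup ratio, which is also the test of whether the differences in the 2 fractions were unequal. Limma called 0% of 41344 tested probes (0 probes, with 2496 at an unadjusted p under 0.05), and 0 of the 3 genes. Gamt had the largest difference, between a control mean of -1.78 ± 0.184 (SD, n = 5) and a testosterone mean of -1.60 ± 0.200 (SD, n = 5), at 0.18 ± 0.146 (SE), with a 95% interval of -0.14 to 0.49 (limma adjusted p = 0.818). Of the testosterone arrays, 4 of 5 lay above the control mean. Leaving out control replicate 2 gave 0.10, leaving out the second scan gave 0.11, and leaving out both gave 0.03. Spike-in centring gave 0.28, with a 95% interval of -0.14 to 0.71, and leaving out testosterone replicate 1 gave 0.24. The control mean of Apoe was -1.14 ± 0.385 (SD, n = 5) and its testosterone mean -1.10 ± 0.244 (SD, n = 5), a difference of 0.04 ± 0.194 (SE) with a 95% interval of -0.38 to 0.46 (limma adjusted p = 0.970), which was -0.13 without control replicate 2 and 0.13 without the second scan. Bambi had means of -1.10 ± 0.253 (SD, n = 5) and -1.16 ± 0.269 (SD, n = 5), a difference of -0.06 ± 0.170 (SE) with a 95% interval of -0.42 to 0.31 (limma adjusted p = 0.946), which was 0.13 without the second scan and -0.16 without control replicate 2. The median absolute difference over all tested probes was 0.15. The first interval given for each gene ignores the slide and leaves room for log2 changes of up to 0.49 for Gamt, 0.46 for Apoe and 0.42 for Bambi. With the slide as a block the intervals were wider, at -0.49 to 0.71 for Gamt, -0.68 to 0.95 for Apoe and -0.45 to 0.77 for Bambi. The data therefore do not show that the ratios were equal, nor that any change lay within the first intervals.

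**Figure D4:**
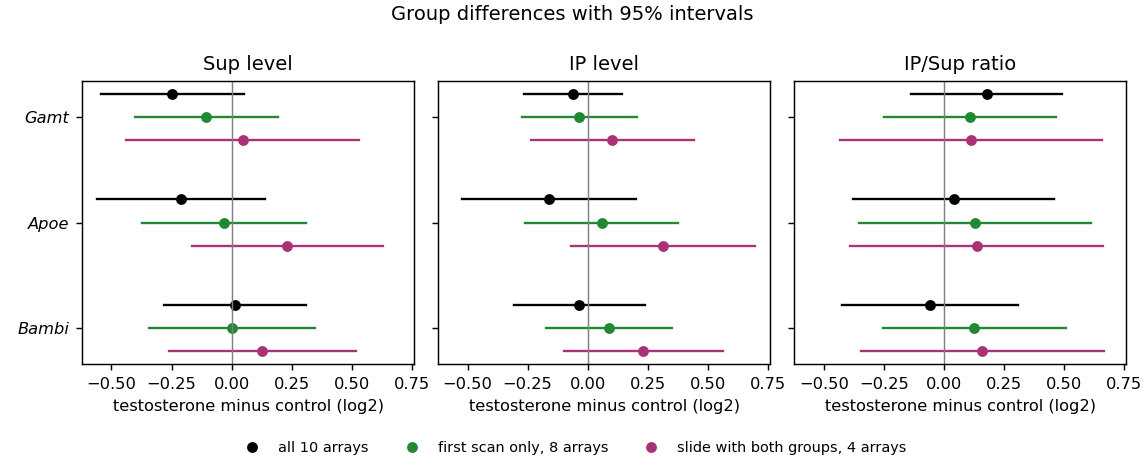
Difference between testosterone and control on the log2 scale for the Sup level, the IP level and the IP/Sup ratio of each gene, with 95% intervals from limma; black uses all 10 arrays, green the 8 arrays of the first scan and purple the 4 arrays of the slide that held both groups. Every interval includes 0, and the Sup difference of Gamt is -0.25, -0.11 and 0.05 in these 3 sets of arrays.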

How the data were processed

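Per the file headers and the submitters' processing notes, the authors read 10 arrays of 2 colours with Feature Extraction 11.0.1.1. The deposited processed signal is a linear intensity that the software had corrected for background and spatial trend and normalized between dyes (linear and lowess), per the file headers. Median spot and background intensity were deposited uncorrected, with other deposited flags of 0 or 1. The authors' deposited value table, on a log2 scale, equals the log2 IP signal less 1 constant per array of unknown origin. The constants are not given here. The medians of the value table's own columns were 1.47, 2.19, 2.22, 1.89 and 2.25 in controls and 2.03, 1.88, 1.26, 1.98 and 1.38 after testosterone. The value table holds 0 rows for the 3 probes and served only 1 alternative.

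Control spots and spots with outlier flags were left out, and a probe's log2 spot values were averaged. A probe was well above background on an array where at least 50% of its unflagged spots were. Probes entered a test if well above background on at least 5 of 10 arrays in the channel, or both channels, used. All tests used lmFit and eBayes of limma 3.58.1 (R 4.3.3), with Benjamini-Hochberg adjustment over every probe tested and a threshold of 0.05, and the code was tested on simulated data. The labels call the samples biological replicates. Symbols came from a RefSeq table of GRCm38.p6 through unversioned accessions (45 of 50 matched), and no coordinates were taken, since the array design names another build. The number of arrays limits the precision. The named genes are the 3 members and the 3 nearest in ratio to each, of which 1 is not reported here. The members and lists were chosen with earlier results of these data known. Figures used matplotlib 3.10.9.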

Additional observations from a re-analysis of the deposited data

Results flagged for a closer look

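In 18 groups of 5 values (3 genes, each with the ratio and both levels, in 2 groups of samples), 3 values lay far from the other 4 of their group by Dixon's test, which flags about 1 group in 20 by chance. All 3 came from control replicate 2: the log2 IP/Sup ratio of Gamt at -2.09 (next lowest control -1.78), that of Apoe at -1.80 (next lowest -1.14, from 5 unflagged spots), and the log2 Sup level of Bambi at 3.69 (next highest 3.17). The 18 groups share the same arrays, and the ratio is made from both levels. They are not independent, so 3 of 18 cannot be set against 1 in 20.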

How the results depend on the processing

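The Sup side of Gamt passed under all 20 alternatives, with log2 ratios from -1.72 to -1.43. Apoe and Bambi were on the Sup side under the same alternatives and fell short of 2-fold under 2 of them, spike-in centring (-0.86 and -0.87) and the 7 arrays without the second scan and control replicate 2 (-0.99 for both), a setting added after the data were examined. Normexp background correction with an offset of 50 gave 10272 probes past the threshold against 16785, and leaving out 1 replicate gave 16605 to 16992. No alternative called any of the 3 genes between the groups. Counts of called probes moved for the Sup level with the slide as a block (3) and within slide 2 (2). For the IP level, against 1, they were 3 without a filter, with the filter on all 10 arrays and with trended and robust eBayes, 4 without scaling, 86 with the slide as a block and 471 in the authors' value table. They were 0 with the replicate block, the scan as a block, spike-in scaling or those 7 arrays, and 0 to 2 with 1 replicate left out. Of the 471 in the authors' value table, 448 were lower after testosterone, where the median difference of all probes was -0.30. Both groups use the same replicate numbers, and the labels do not say whether same-numbered samples were paired. Same-numbered deviations correlated at -0.03 to 0.04 for the ratio (0 of 5 pairs over 0.1). They correlated at -0.19 to 0.18 for the Sup level (3 of 5) and -0.02 to 0.17 for the IP level (2 of 5). These correlations were not tested and cannot settle whether samples were paired. The replicate block changed no call of the 3 genes. The slide as a block and slide 2 alone rest on the same 4 arrays, with 1 control assumed to vary like the others. They gave the same differences for the 3 genes, though not the same counts of called probes for the levels. These differences were 0.16 for the ratio of Bambi, 0.23 and 0.046 for the Sup level of Apoe and Gamt, and 0.31, 0.10 and 0.23 for the IP level of Apoe, Gamt and Bambi. Without the second scan, or with it as a block, the ratio of Bambi was at 0.13 and the IP level of Apoe and Bambi at 0.058 and 0.088. On the 7 arrays the ratio of Apoe was -0.037 and that of Bambi 0.028, the Sup level of Apoe 0.066 and the IP level of Bambi 0.10. With spike-in centring the ratio of Bambi was 0.048, that of Apoe 0.15 and that of Gamt 0.28, and with spike-in scaling the IP level of Apoe, Gamt and Bambi was -0.33, -0.22 and -0.20, where the median of all probes was -0.19. The Sup level of Bambi was -0.047 with normexp, -0.14 with quantile normalization and -0.29 without scaling. Without scaling the Sup level of Apoe and Gamt was -0.51 and -0.55, where the median of all probes was -0.35, and the IP level of Apoe, Gamt and Bambi was -0.47, -0.37 and -0.34, where that median was -0.34. With 1 replicate left out, the ratio difference ran from -0.13 to 0.14 for Apoe, from 0.10 to 0.24 for Gamt and from -0.16 to 0.022 for Bambi, the Sup difference from -0.29 to -0.11 for Apoe and from -0.34 to -0.17 for Gamt, and the IP difference from -0.24 to -0.060 for Apoe and from -0.094 to -0.0086 for Gamt. For Bambi the Sup difference ran from -0.033 to 0.13 and the IP difference from -0.092 to 0.048. The cause of these moves was not tested.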
